A study of Mus musculus with 24 samples.

Results

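Glycolysis splits glucose into pyruvate, and lactate dehydrogenase converts pyruvate and lactate into each other. The genes described here are 10 of that route: the hexokinases Hk1 and Hk2, the phosphofructokinases Pfkl and Pfkp, the aldolase Aldoa, the phosphoglycerate kinase Pgk1, the enolase Eno1, the pyruvate kinase Pkm, and the lactate dehydrogenase subunits Ldha and Ldhb. They were chosen by symbol, and a probe set counted only where the platform annotation gives it that symbol alone. By this rule 9 of the 10 genes, with 23 probe sets, are among the 18193 genes tested; the expression of Eno1 was not analysed here.

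RNA of 4 sorted mouse blood progenitor populations was hybridised to 24 one-colour Affymetrix arrays, 3 for each population in wild-type (WT) mice and 3 in mice without Ikaros (KO), the DNA-binding regulator of blood lineages that Ikzf1 encodes. The populations are LSK GFPneg-lo (labelled HSC, a stem cell), LSK GFPhi (labelled LMPP), LK GFPneg (labelled MEP) and LK GFPhi (labelled GMP), where LSK and LK name 2 gates on Kit-bearing progenitors with and without Sca-1 in the usual sense of the terms. GFP came from an Ikaros-based reporter carried by the mice of both genotypes, the B-p-GFP-C line on a C57BL/6 x C3H background. The KO arrays also carry the null allele of the I74 line, kept on C57BL/6 x 129SV, so strain and genotype cannot be told apart. The titles call the arrays biological replicates, and no label says whether an array holds 1 animal or a pool, so p-values measure the spread between arrays.

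Hexokinase traps glucose in the cell, phosphofructokinase commits it to breakdown, and pyruvate kinase makes the last ATP of the route. Lactate dehydrogenase is a tetramer of the subunits LDHA and LDHB: LDHA-rich forms favour lactate production, and LDHB-rich forms favour the return of lactate to pyruvate. Blood stem cells are known for a strong use of glycolysis, and many genes of the route are targets of the hypoxia factor HIF1 and of MYC.

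The labels were checked on the arrays first. Ikzf1 lay at 10.99 to 11.99 on the WT arrays and at 6.51 to 8.88 on the KO arrays (log2 signal), with no overlap. The mean level of 8 stem cell markers was highest in LSK GFPneg-lo (10.70 to 10.95 in WT), that of 8 early lymphoid markers in LSK GFPhi (9.64 to 9.92), that of 9 erythroid markers in LK GFPneg (10.86 to 11.01) and that of 8 granulocyte and monocyte progenitor markers in LK GFPhi (11.86 to 12.28). The early lymphoid list was nearly as high in WT LK GFPhi (9.33 to 9.58), so it separated the GFPhi populations little. Megakaryocyte markers, 8 measured, did not peak in LK GFPneg: their mean level was 8.07 to 8.67 there in WT and 9.13 to 10.01 in LSK GFPneg-lo. The Y-linked gene Eif2s3y was at 7.88 to 10.40 on WT arrays, and at 7.20 to 8.33 on KO arrays numbered 2 and on KO LK GFPhi replicate 3 (7.74). It was at 3.99 to 4.14 on the other KO arrays, while Xist was at 11.97 to 13.36 on all. The WT arrays and some KO arrays thus held both RNAs at once, as a pool of male and female cells would. The level of Eif2s3y also differed between the genotypes, so sex mix and genotype are partly confounded. Values of different genes are not set against each other, since probe sets differ in brightness, and in bulk RNA fewer cells of a type and less RNA per cell cannot be told apart.

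The promoters of 4 of the genes are shown, since Ldhb, Hk2 and Pkm were lowest together in LK GFPneg while Ldha was not. Each line gives the 250 bases before the RefSeq start, 5′ to 3′ on the gene's strand, in GRCm38.p6. Ldha, chr7:46845554-46845803 on the plus strand, lies inside the annotated span of the gene, upstream of a transcript start; Ldhb is chr6:142507958-142508207 and Hk2 chr6:82774455-82774704, both on the minus strand; and Pkm is chr9:59656326-59656575 on the plus strand. Capitals mark the letters ACGTG or GCGTG on either strand, the core of a hypoxia response element, with overlapping matches joined.
Ldha: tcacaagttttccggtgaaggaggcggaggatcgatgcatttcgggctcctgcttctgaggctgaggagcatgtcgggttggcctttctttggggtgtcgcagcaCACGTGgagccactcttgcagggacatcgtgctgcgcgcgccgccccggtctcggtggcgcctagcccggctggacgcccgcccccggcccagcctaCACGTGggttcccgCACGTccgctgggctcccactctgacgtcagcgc
Ldhb: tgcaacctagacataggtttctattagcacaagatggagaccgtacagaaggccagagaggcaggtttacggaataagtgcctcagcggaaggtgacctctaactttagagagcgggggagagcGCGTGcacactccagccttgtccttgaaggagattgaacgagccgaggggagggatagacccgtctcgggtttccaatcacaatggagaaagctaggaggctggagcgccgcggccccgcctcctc
Hk2: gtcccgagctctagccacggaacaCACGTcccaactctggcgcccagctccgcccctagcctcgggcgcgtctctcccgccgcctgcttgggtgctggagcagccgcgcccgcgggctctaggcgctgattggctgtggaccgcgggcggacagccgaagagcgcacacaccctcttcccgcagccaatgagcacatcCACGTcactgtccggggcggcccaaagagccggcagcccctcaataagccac
Pkm: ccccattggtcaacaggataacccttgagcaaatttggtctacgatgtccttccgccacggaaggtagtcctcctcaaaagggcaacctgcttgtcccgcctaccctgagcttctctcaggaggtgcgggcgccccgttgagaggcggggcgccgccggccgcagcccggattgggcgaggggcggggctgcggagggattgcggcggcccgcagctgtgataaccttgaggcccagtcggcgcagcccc
Ldha held 3 such stretches, Hk2 held 2, Ldhb held 1 and this start of Pkm held 0. A second RefSeq start of Ldha held 1 and a second start of Pkm held 1, so these numbers depend on the start chosen. Over all 10 genes, Eno1 included, 14 of 17 promoter entries held at least 1, while either core occurred in 38.6% of the 32851 promoter entries of the same length. Starts 2 and 3 of Eno1 overlap and share their matches, as do starts 2 and 3 of Aldoa, so the 17 entries are not independent. The Ikaros core TGGGAA, searched on both strands, was in none (0 matches) of the 4 sequences printed and in 21.6% of all entries. A match is a description of the letters and not a measured site.

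**Figure D1:**
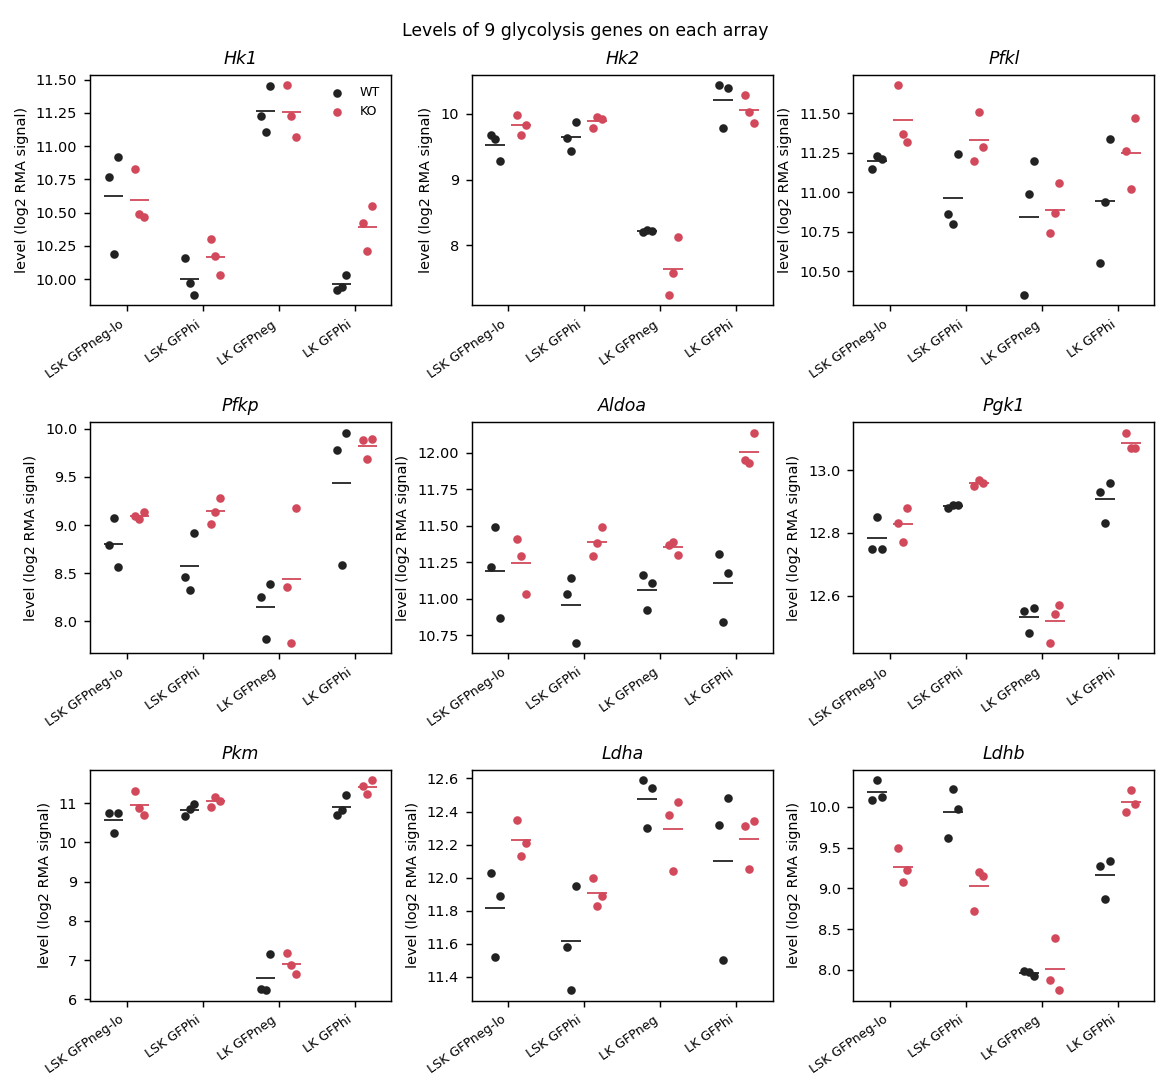
Level of each of the 9 genes on every array (log2 RMA signal; points are arrays, short lines group means, black WT and red KO). Pkm spans group means of 6.56 to 11.42, with both LK GFPneg groups at the bottom, and Ldhb has red points below black ones in both LSK populations and above them in LK GFPhi.

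Across the WT populations, called genes of the route lay in both directions. In LK GFPneg, the population rich in erythroid markers, Pkm, Ldhb, Hk2 and Pgk1 were lower and Hk1 and Ldha higher than in LSK GFPneg-lo, which is 6 of 9 genes beside 27.1% of all genes called in that comparison. The median difference of the 9 genes was -0.35 on the log2 scale, against 0.03 for all genes, and 7 of 9 were below 0. With median centring these medians were -0.18 and 0.20, with 2 genes called higher and 3 lower. With the replicate block in a fit of the compared groups alone, Pgk1 was not called and Pfkp was called lower (-0.66, adjusted p = 0.0364). The fit of these groups without the block gave the same changes (adjusted p = 0.0693 for Pgk1 and 0.0322 for Pfkp). In the fit of all 24 arrays the adjusted p of Pfkp was 0.136. Between LK GFPhi and LK GFPneg, 5 genes were higher in LK GFPhi (Pkm, Hk2, Ldhb, Pfkp and Pgk1) and 1, Hk1, was lower, beside 18.6% of all genes, with a median of 0.37 against -0.00 for all genes. These comparisons share arrays, so they are not independent of each other.

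**Figure D2:**
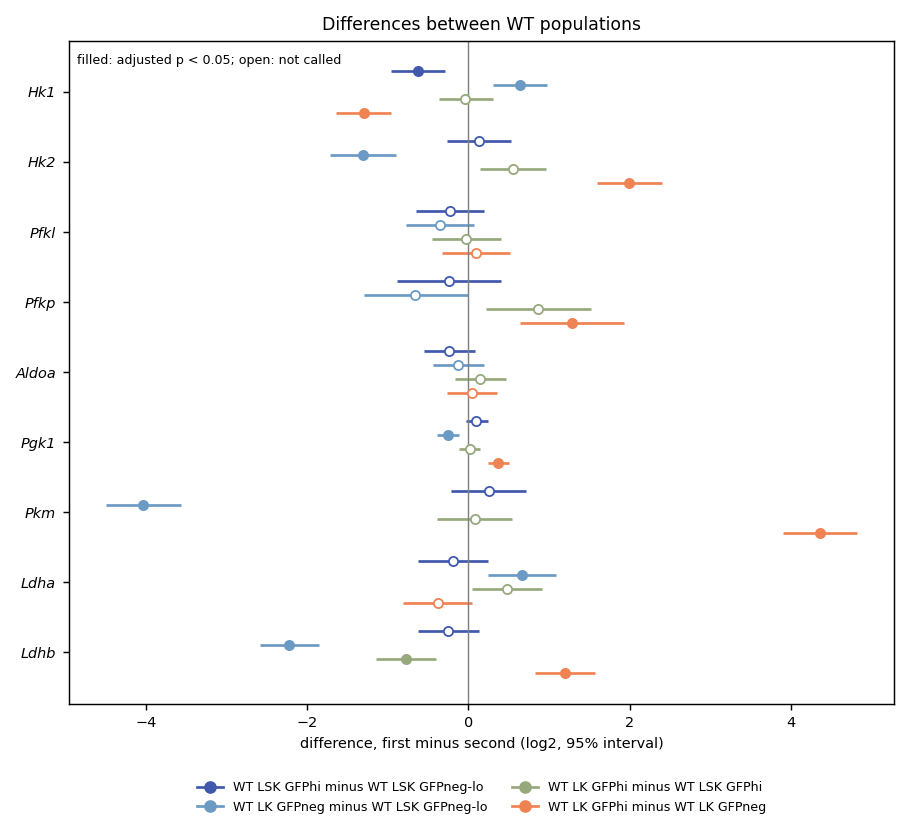
Differences between WT populations for the 9 genes (log2, first minus second population; points are estimates, lines 95% intervals, filled points adjusted p under 0.05). Pkm stands at -4.03 and 4.36 in the comparisons that involve LK GFPneg, and Hk1 lies on the opposite side of 0 from Hk2 in both.

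Hexokinases carry out the first step, and the 2 measured here ran in opposite directions. Hk1 (chr10:62268855-62379920) is the isoform found in most tissues and the main one of red cells. Its 3 WT arrays read 10.77, 10.19 and 10.92 in LSK GFPneg-lo, 10.16, 9.97 and 9.88 for LSK GFPhi, 11.23, 11.11 and 11.45 in LK GFPneg, and 9.92, 9.94 and 10.03 for LK GFPhi. LK GFPneg lay above every other WT array. It was 0.64 ± 0.16 (standard error, adjusted p = 0.00504) above LSK GFPneg-lo, and LK GFPhi was lower than it by a difference of -1.30 ± 0.16 (adjusted p = 3.33e-06). Hk1 was also lower in LSK GFPhi than in LSK GFPneg-lo (-0.62 ± 0.16, adjusted p = 0.0275), the 1 of 9 genes called there beside 4.52% of all genes; the median of the 9 was -0.23 against 0.04. That call ended with a fit of the compared groups alone (adjusted p = 0.2), with the mean of both Hk1 probe sets (0.295), and without WT LSK GFPneg-lo replicate 1 (0.132) or 3 (0.173) or WT LSK GFPhi replicate 2 (0.0995) or 3 (0.0956).

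Hk2 (chr6:82725025-82774454) is the inducible hexokinase. Its WT arrays read 9.68, 9.61 and 9.28 in LSK GFPneg-lo, 9.64, 9.44 and 9.87 for LSK GFPhi, 8.20, 8.23 and 8.22 in LK GFPneg, and 10.44, 9.79 and 10.39 for LK GFPhi. All 3 LK GFPneg arrays lay below every other WT array. The difference from LSK GFPneg-lo was -1.31 ± 0.19 (adjusted p = 3.1e-05), and LK GFPhi was 1.99 ± 0.19 above LK GFPneg (adjusted p = 1.25e-07).

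The phosphofructokinases differed in how much they varied. Pfkl, the liver-type subunit, had group means between 10.85 and 11.46 and was called in no comparison of 2 groups by limma. Pfkp, the platelet-type subunit, read 8.25, 7.82 and 8.39 in WT LK GFPneg and 9.78, 8.58 and 9.96 in WT LK GFPhi. The 2 groups did not overlap, with LK GFPhi higher by 1.29 ± 0.31 (adjusted p = 0.00444), a call that ended in a fit of the compared groups alone (adjusted p = 0.0553). Of the 3 Pfkp probe sets, the other 2 were dim, with lowest arrays of 5.17 and 5.12.

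Aldoa, which splits the 6-carbon sugar, showed no called difference between WT populations, with WT arrays from 10.70 to 11.49. Pgk1, the first ATP-making enzyme of the route and a gene of the X chromosome (chrX:106187100-106203699), moved little. Its WT arrays read 12.75, 12.85 and 12.75 in LSK GFPneg-lo, 12.55, 12.48 and 12.56 in LK GFPneg, and 12.93, 12.83 and 12.96 for LK GFPhi. LK GFPneg lay below both others, by -0.25 ± 0.07 from LSK GFPneg-lo (adjusted p = 0.00563), and LK GFPhi was 0.37 ± 0.07 above it (adjusted p = 0.000206). Centring each array on its median, which shifts the median of all genes in the LSK GFPneg-lo comparison by 0.17, brought the Pgk1 difference there to -0.09 (adjusted p = 0.327), and the call also ended with the replicate block (adjusted p = 0.0678), the compared groups alone (0.0693), the mean of the 3 probe sets (0.0749) and without _x_at probe sets (0.617).

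Pkm (chr9:59656576-59679372), the pyruvate kinase gene of most tissues outside liver and red cells, had the widest range of the 9 genes. Its WT arrays read 10.75, 10.25 and 10.75 in LSK GFPneg-lo, 10.68, 10.85 and 10.99 for LSK GFPhi, 6.27, 6.24 and 7.16 in LK GFPneg, and 10.70, 10.83 and 11.22 for LK GFPhi. The LK GFPneg arrays lay more than 3 log2 units below every other WT array. LK GFPneg was lower than LSK GFPneg-lo by -4.03 ± 0.22 (16.3-fold, adjusted p = 5.39e-11) and LK GFPhi higher than LK GFPneg by 4.36 ± 0.22 (20.5-fold, adjusted p = 1.01e-11). Pklr, the pyruvate kinase gene of liver and red cells, was 0.40 ± 0.09 higher in WT LK GFPneg than in LSK GFPneg-lo (adjusted p = 0.00296). The median of all probe sets lay between 6.57 and 6.75 on the arrays, so 2 of the 3 WT LK GFPneg values of Pkm were below it, and without detection calls it is not known whether they are above background; if not, both folds are lower bounds. Pkm has 1 probe set here, so no other probe set of the gene can be set beside it.

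The lactate dehydrogenase subunits ran in opposite directions between LSK GFPneg-lo and LK GFPneg. Ldha (chr7:46842274-46855627) read 12.03, 11.52 and 11.89 on the WT arrays of LSK GFPneg-lo, 11.58, 11.32 and 11.95 for LSK GFPhi, 12.59, 12.30 and 12.54 in LK GFPneg, and 12.32, 11.50 and 12.48 for LK GFPhi. LK GFPneg lay above both LSK groups, and LK GFPhi overlapped the LSK groups through replicate 2 and LK GFPneg through replicates 1 and 3. The rise from LSK GFPneg-lo to LK GFPneg was 0.67 ± 0.21 (adjusted p = 0.0199), and the call ended without WT LSK GFPneg-lo replicate 2 (adjusted p = 0.113) or WT LK GFPneg replicate 1 (0.0716) or 3 (0.0665).

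Ldhb (chr6:142490249-142507957) read 10.09, 10.33 and 10.12 on the WT arrays of LSK GFPneg-lo, 9.62, 10.22 and 9.97 for LSK GFPhi, 7.99, 7.97 and 7.92 in LK GFPneg, and 9.27, 8.87 and 9.34 for LK GFPhi. Both LSK groups overlapped, LK GFPhi lay below them, and LK GFPneg lay below all. LK GFPneg was lower than LSK GFPneg-lo by -2.22 ± 0.18 (adjusted p = 1.14e-08), and by -3.67 when the 4 probe sets were averaged. Singly they gave -2.22 to -5.11, the largest from a probe set that read 4.48, 5.25 and 5.37 in WT LK GFPneg and may not be above background there. LK GFPhi was higher than LK GFPneg by 1.20 ± 0.18 (adjusted p = 3.22e-05).

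Between the GFPhi populations, Ldhb was lower in WT LK GFPhi than in WT LSK GFPhi (-0.77 ± 0.18, adjusted p = 0.0144), the 1 gene called of 9 beside 4.55% of all genes, with a median of 0.08 against -0.03. The call ended in a fit of the compared groups alone (adjusted p = 0.143) and without WT LSK GFPhi replicate 2 (0.0915). WT LK GFPhi replicate 2 was below its group mean for 9 of 9 genes, and replicate 3 above it for 9 of 9. The difference of 3′ and 5′ control probe sets, a sign of RNA quality, was largest on replicate 2 and smallest on replicate 3. It was 3.69, 4.45 and 2.71 for Gapdh and 2.08, 3.04 and 1.80 for Actb on replicates 1 to 3, and its part was not tested. With the replicate number as a block, which pairs these arrays, 4 genes were called: Ldhb at an unchanged -0.77, and Hk2 (0.56, adjusted p = 0.019), Ldha (0.48, adjusted p = 0.0399) and Pfkp (0.87, adjusted p = 0.0304) higher in LK GFPhi. The count was also 4 without WT LK GFPhi replicate 2.

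Loss of Ikaros went with a change of Ldhb whose direction depended on the population, and with more Aldoa in LK GFPhi. Ldhb fell by 0.92 in LSK GFPneg-lo and by 0.91 in LSK GFPhi and rose by 0.90 in LK GFPhi. Aldoa rose by 0.90 in LK GFPhi and was not called in the other 3. The remaining 7 genes passed the test in 0 of the 4 populations by limma.

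**Figure D3:**
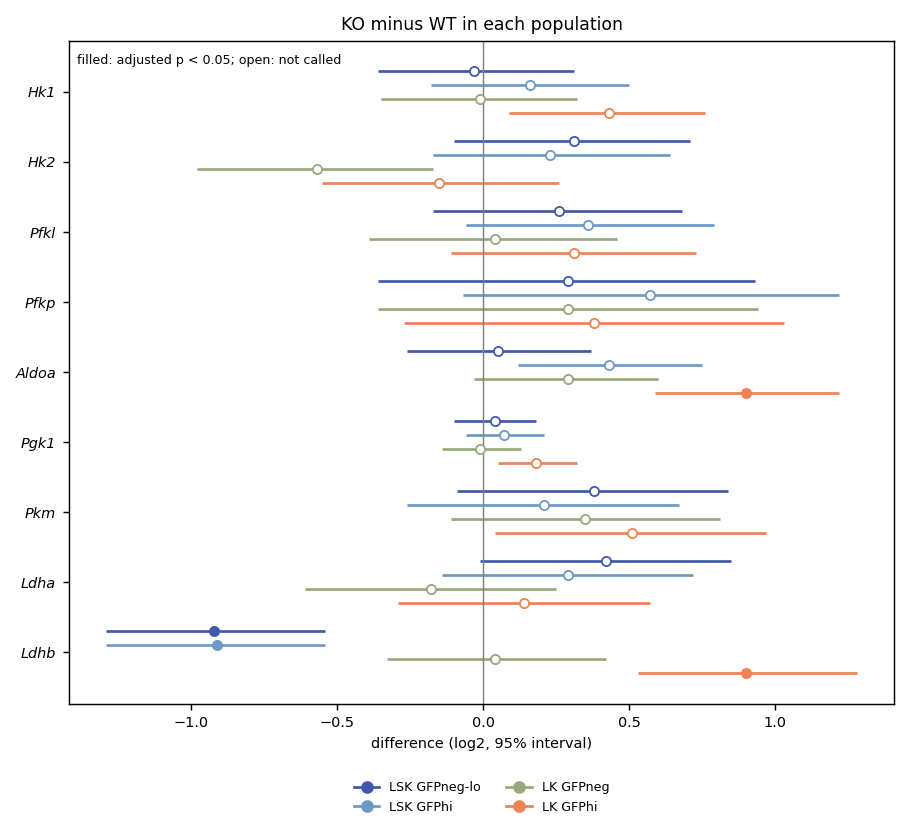
KO minus WT for the 9 genes in each population (log2; points are estimates, lines 95% intervals, filled points adjusted p under 0.05). The 4 filled points are Ldhb in both LSK populations at -0.92 and -0.91 and, in LK GFPhi, Ldhb and Aldoa at 0.90 each.

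Ldhb on the KO arrays read 9.49, 9.08 and 9.23 in LSK GFPneg-lo, 8.72, 9.20 and 9.15 for LSK GFPhi, 7.87, 8.39 and 7.75 in LK GFPneg, and 9.94, 10.21 and 10.04 for LK GFPhi. Every KO array lay below every WT array in both LSK populations and above every WT array in LK GFPhi, and the genotypes overlapped in LK GFPneg. In LSK GFPneg-lo the difference was -0.92 ± 0.18 (1.89-fold, adjusted p = 0.00571), and Ldhb was the 1 gene of 9 called beside 2.14% of all genes. In LSK GFPhi it was -0.91 ± 0.18 (1.88-fold, adjusted p = 0.00281), again 1 of 9 beside 4.60%. With the level of the Y-linked gene Eif2s3y as a covariate the values were -0.78 in both and the adjusted p-values 0.105 and 0.0567, so both calls ended. Eif2s3y differed between the genotypes, so this covariate can take up part of any KO difference. Genes called over all fell with it from 389 to 210 in LSK GFPneg-lo and from 837 to 499 in LSK GFPhi.

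In LK GFPhi Ldhb rose by 0.90 ± 0.18 (1.87-fold, adjusted p = 0.00242) and Aldoa by 0.90 ± 0.15 (1.87-fold, adjusted p = 0.000532), which is 2 of 9 genes beside 9.56% of all genes. Both calls held with the Eif2s3y covariate (adjusted p = 0.00362 for Ldhb and 0.0015 for Aldoa) and with each array left out. In LK GFPneg 0 of 9 genes were called by limma beside 2.65% of all genes, and 1 had an unadjusted p under 0.05. That gene was Hk2, which read 7.24, 7.57 and 8.12 on the KO arrays, all below the WT arrays. Its difference of -0.57 ± 0.19 did not pass (adjusted p = 0.171), and it passed with array weights (-0.82, adjusted p = 0.00242) and without KO LK GFPneg replicate 3 (-0.81, adjusted p = 0.0206).

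**Figure D4:**
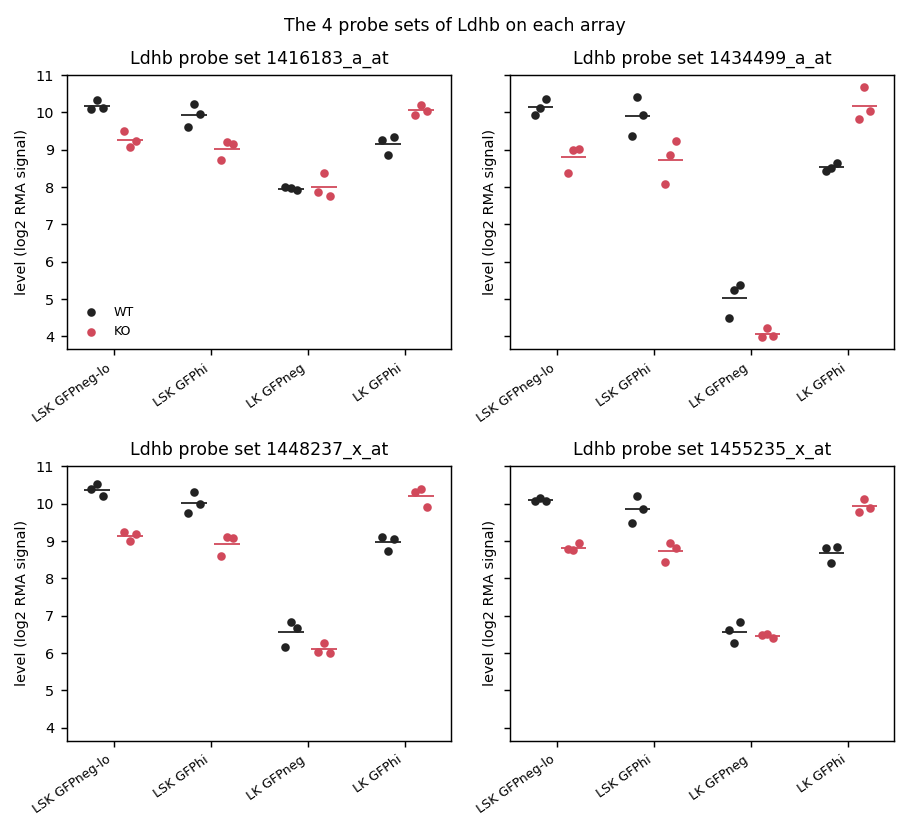
The 4 Ldhb probe sets on each array (log2 RMA signal; points are arrays, short lines group means, black WT and red KO). All 4 have KO below WT in both LSK populations and above WT in LK GFPhi; in LK GFPneg the brightest probe set goes no lower than 7.75 while the dimmest reaches 3.99.

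The 4 Ldhb probe sets gave the same directions in those 3 populations, each called when all probe sets were tested. In LSK GFPneg-lo their differences ran from -1.35 to -0.92, in LSK GFPhi from -1.18 to -0.91, and in LK GFPhi from 0.90 to 1.65. In LK GFPneg they ran from -0.96 to 0.04 with 0 of 4 called, and the dimmest of them had an array at 3.99. Of the 5 Aldoa probe sets, 4 were called higher in KO LK GFPhi, at 0.75 to 1.12, and the last was not (0.40 ± 0.24, adjusted p = 0.345). All 5 end in _x_at, a mark of probes that may bind related transcripts, so Aldoa has no value when such probe sets are left out.

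Aldoa read 11.95, 11.93 and 12.14 on the KO arrays of LK GFPhi against 11.31, 10.84 and 11.18 on the WT arrays. The KO arrays lay above all others of the gene, of either genotype. In LSK GFPhi it read 11.29, 11.38 and 11.49 in KO and 11.03, 11.14 and 10.70 in WT, also without overlap, and the difference of 0.43 ± 0.15 did not pass (adjusted p = 0.142), though it did with the mean of the 5 probe sets (0.46, adjusted p = 0.0113).

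Across the 9 genes the KO difference was above 0 for 7 genes in LSK GFPneg-lo and 8 in LSK GFPhi, and for 5 in LK GFPneg and 8 in LK GFPhi. The medians were 0.26, 0.23, 0.04 and 0.38 in that order, against 0.03, 0.01, 0.04 and 0.07 for all genes. In LK GFPhi, Pgk1 differed by 0.18 ± 0.07 (adjusted p = 0.0862), Hk1 by 0.43 ± 0.16 (adjusted p = 0.103) and Pkm by 0.51 ± 0.22 (adjusted p = 0.16), each with all KO arrays above all WT arrays on the brightest probe set. The other probe sets of Pgk1 and Hk1 overlapped between genotypes there. Their KO and WT means were 12.54 and 12.59, and 11.72 and 11.64, for Pgk1. For Hk1 they were 5.88 and 5.95. Ldha on the KO arrays read 12.35, 12.13 and 12.21 in LSK GFPneg-lo, above all 3 WT arrays, with a difference of 0.42 ± 0.21 (95% interval -0.01 to 0.85, adjusted p = 0.522). Its intervals in the other populations were -0.14 to 0.72 in LSK GFPhi, -0.61 to 0.25 in LK GFPneg and -0.29 to 0.57 in LK GFPhi, so changes up to these bounds cannot be told from 0 here.

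Averaged over the 4 populations, Aldoa was 0.42 ± 0.08 (adjusted p = 0.000515) and Pkm 0.36 ± 0.11 (adjusted p = 0.0312) higher in KO, 2 of 9 genes beside 16.1% of all genes. The Pkm call ended with median centring (adjusted p = 0.0821), with the Eif2s3y covariate (0.238) and without any 1 of 10 arrays, WT LK GFPneg replicate 1 giving the highest (0.0622). Those arrays are WT LSK GFPneg-lo replicate 2, WT LSK GFPhi replicate 1, WT LK GFPneg replicates 1 and 2, WT LK GFPhi replicate 1, KO LSK GFPneg-lo replicate 1, KO LSK GFPhi replicates 2 and 3, KO LK GFPneg replicate 1 and KO LK GFPhi replicate 3.

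Whether the KO effect differed between populations was tested with interaction contrasts. For Ldhb the effect in LK GFPhi was 1.82 ± 0.25 above that in LSK GFPhi (adjusted p = 0.00312), the 1 of 9 genes called beside 0.143% of all genes. Against LSK GFPneg-lo, a contrast added after the data were seen, it was 1.82 ± 0.25 above (adjusted p = 0.000767), 1 of 9 beside 1.03%. Between LSK GFPhi and LSK GFPneg-lo (0.313% of all genes called), LK GFPneg and LSK GFPneg-lo (0.808%), LK GFPhi and LK GFPneg (2.50%) and, also added, LK GFPneg and LSK GFPhi (1.97%), 0 of 9 genes were called by limma, with 0, 2, 2 and 2 at an unadjusted p under 0.05. The Ldhb effect in LK GFPhi was 0.86 ± 0.25 above that in LK GFPneg, which did not pass (adjusted p = 0.0889). It passed with the mean of probe sets (1.63, adjusted p = 0.000507), with array weights (0.90, 0.0109) and without KO LK GFPneg replicate 2 (1.05, 0.0188). The Ldhb effect in LK GFPneg was 0.96 above that in either LSK population (adjusted p = 0.0973 for LSK GFPneg-lo and 0.0572 for LSK GFPhi), and some alternatives called it. For Aldoa the effect in LK GFPhi was 0.47 ± 0.21 above that in LSK GFPhi (adjusted p = 0.597) and 0.61 ± 0.21 above that in LK GFPneg (adjusted p = 0.187). Against LSK GFPneg-lo it was 0.85 ± 0.21 above (adjusted p = 0.062), which also did not pass, and which passed with the mean of probe sets (0.79, adjusted p = 0.00992), with array weights (0.73, adjusted p = 0.0399) and without WT LSK GFPneg-lo replicate 3 (1.01, adjusted p = 0.0184).

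Markers of other cells moved with the KO effect in LK GFPhi and in both LSK populations. In LK GFPhi the mean level of 3 eosinophil markers was 7.31, 9.02 and 11.16 on the KO arrays and 5.55 to 5.90 on the WT arrays, with 3 of 3 called higher, and Prg2 rose by 4.61 ± 0.56. Of 6 mast cell and basophil markers 4 were called higher (mean level 8.61 to 9.59 against 7.08 to 7.46), and of 6 mature neutrophil markers 5 (7.23 to 7.87 against 5.67 to 6.16). Of 8 stem cell markers 4 were higher, and of 8 early lymphoid markers 7 were lower. These counts stand beside 9.56% of all genes called in LK GFPhi. In LSK GFPhi, where 4.60% of all genes were called, 3 of 8 stem cell markers were called higher in KO. There 8 of 8 early lymphoid markers were lower (8.08 to 8.46 against 9.64 to 9.92). The mean level of 5 macrophage markers was 8.97 to 9.50 there against 7.66 to 7.82 in WT, and that of 8 megakaryocyte markers 8.56 to 9.15 against 7.26 to 7.63. Lists of mature neutrophil, mast cell and basophil, granulocyte and monocyte progenitor, and stroma and endothelium markers were also above WT without overlap, and 5 B and plasma cell markers below (5.91 to 6.10 against 7.27 to 7.51). With median centring, called higher there were 3 of 5 macrophage, 4 of 8 megakaryocyte and 1 of 6 mature neutrophil markers. So were 2 of 6 mast cell and basophil, 2 of 8 granulocyte and monocyte progenitor and 1 of 7 stroma and endothelium markers. Of 5 B and plasma cell markers 2 were lower. In LSK GFPneg-lo the KO arrays were above the WT arrays for the macrophage list (7.41 to 7.63 against 6.69 to 6.85), the mast cell and basophil list (7.87 to 8.30 against 7.31 to 7.48), the granulocyte and monocyte progenitor list (9.73 to 10.22 against 9.16 to 9.50) and the 7 stroma and endothelium markers (6.70 to 7.11 against 5.84 to 6.15). The early lymphoid list was below, with a highest KO array of 7.18 and a lowest WT array of 7.34. So was the B and plasma cell list (5.98 to 6.09 against 6.18 to 6.36). The eosinophil list was above (6.13 to 6.36 against 5.44 to 5.85), and the megakaryocyte list overlapped (9.81 to 10.57 against 9.13 to 10.01). With median centring, called higher in LSK GFPneg-lo were 2 of 5 macrophage and 1 of 6 mast cell and basophil markers. So were 3 of 8 granulocyte and monocyte progenitor, 4 of 8 megakaryocyte and 2 of 7 stroma and endothelium markers. Of 8 early lymphoid markers 2 were lower, and 0 of the eosinophil and 0 of the B and plasma cell markers were called. In LK GFPhi the macrophage (8.76 to 9.50 against 8.16 to 8.39), megakaryocyte (8.65 to 9.29 against 7.18 to 8.07), erythroid (8.07 to 8.80 against 7.76 to 7.95) and stroma lists (6.52 to 6.92 against 5.88 to 6.16) were above WT as well. With median centring, 1 of 5 macrophage markers was called higher there (median difference 0.02), and 2 of 9 erythroid markers (0.16). Of 8 megakaryocyte markers 3 were higher and 1 lower (0.81), and of 7 stroma and endothelium markers 1 and 1 (-0.00). The T and NK list was also above WT in LK GFPhi (7.85 to 7.90 against 7.45 to 7.54), with 2 of 5 called higher with median centring. The B and plasma cell list was below (5.93 to 6.16 against 6.57 to 6.74), with 1 of 5 called lower. A shift of a list mean can thus rest on few of its genes. The difference of the 3′ and 5′ probe sets of Actb, a sign of RNA quality, was 2.94 to 4.26 on the KO arrays of LK GFPhi. On the WT arrays it was 1.80 to 3.04, so the genotypes overlapped narrowly. That of Gapdh overlapped widely (3.31 to 4.40 in KO against 2.71 to 4.45 in WT). The part of these in the changes of Ldhb and Aldoa was not tested.

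The other glycolytic enzymes, 17 measured, held few calls between genotypes. In LSK GFPneg-lo 0 were called by limma, in LSK GFPhi 1 was higher, in LK GFPneg 2 and in LK GFPhi 2, with 0 lower, and medians of 0.12, 0.09, 0.12 and 0.16 (0.08, 0.03, 0.10 and 0.04 with median centring). Of all genes, 2.14%, 4.60%, 2.65% and 9.56% were called in these populations, in the same order. The KO counts of the lists below stand beside the same shares. With the replicate block the counts were 1 higher in LSK GFPneg-lo and 1 in LK GFPhi. The leading gene was Aldoc, the brain-type aldolase. It read 7.96, 8.69 and 8.34 in WT LSK GFPhi and 10.05, 10.21 and 10.37 in KO, and 6.89, 7.03 and 6.89 in WT LK GFPhi and 8.70, 9.30 and 10.09 in KO. Neither pair of groups overlapped, and Aldoc rose by 1.88 ± 0.23 (3.68-fold, adjusted p = 1.93e-05) in LSK GFPhi and by 2.43 ± 0.23 (5.37-fold, adjusted p = 8.48e-07) in LK GFPhi. Both calls held under every alternative run. On the same 3 KO LK GFPhi arrays the eosinophil markers averaged 7.31, 9.02 and 11.16, the same order as Aldoc, and their part in its rise was not tested. In WT, Aldoc was highest in LSK GFPneg-lo (9.22, 9.38 and 9.05), and KO LSK GFPneg-lo (9.91, 9.86 and 9.47) lay above it, a difference that did not pass the test (0.53 ± 0.23, adjusted p = 0.426).

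Ldhc, the testis form of lactate dehydrogenase, rose by 1.49 ± 0.33 (adjusted p = 0.0153) in LK GFPneg and by 1.26 ± 0.33 (adjusted p = 0.02) in LK GFPhi, where the replicate block (adjusted p = 0.0888) and the compared groups alone (0.204) ended the call. Its LK GFPneg arrays read 6.00, 6.39 and 6.29 in WT and 7.24, 7.80 and 8.10 in KO, without overlap. The LK GFPneg call ended without WT replicate 1 (adjusted p = 0.0846) or 3 (0.0527) or KO replicate 3 (0.0828), and the LK GFPhi call without KO replicate 3 (0.126) or WT replicate 1 (0.0742) or 3 (0.0516). Eno3, the muscle enolase, rose by 0.71 ± 0.16 in LK GFPneg (adjusted p = 0.0173), a call that ended with the compared groups alone (0.2), with the Eif2s3y covariate (0.17) and without KO replicate 3 (0.106) or WT replicate 1 (0.135).

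Of 10 glucose and lactate transport genes, 1 rose in LSK GFPhi and 2 in LK GFPhi, and 0 passed in LSK GFPneg-lo (2 with the replicate block) and LK GFPneg by limma. Medians ran from -0.14 to 0.11 (-0.16 to 0.06 with median centring, the LK GFPhi value turning from 0.05 to -0.08), and in LK GFPhi median centring and the block each gave 1 higher and 1 lower. The glucose transporter Slc2a1 read 7.83, 7.99 and 7.96 in WT LK GFPhi and 8.51, 9.07 and 9.09 in KO, a rise of 0.96 ± 0.22 (adjusted p = 0.00724) that held under every alternative run. Slc2a8 rose by 0.51 ± 0.14 (adjusted p = 0.0273), and this call ended with the replicate block (0.0513) and median centring (0.0765). The lactate transporter Slc16a1 rose by 1.22 ± 0.31 in LSK GFPhi (adjusted p = 0.0231), with WT arrays at 9.30, 8.81 and 9.73 and KO arrays at 10.47, 10.51 and 10.53; the call ended without any 1 of 5 of these 6 arrays (0.0611 to 0.134), WT replicate 3 being the exception, and with the mean of probe sets (0.62, adjusted p = 0.0783).

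Among 7 pentose phosphate genes, 1 rose in LSK GFPhi and 2 in LK GFPhi, where the median was 0.28 (0.15 with median centring, and 1 called). H6pd, the glucose-6-phosphate dehydrogenase of the endoplasmic reticulum, rose by 0.94 ± 0.14 in LK GFPhi (adjusted p = 0.000117), with WT arrays at 9.17, 9.06 and 9.04 and KO arrays at 9.91, 10.12 and 10.05. Rpia, a ribose phosphate isomerase, rose by 0.44 ± 0.10 in LSK GFPhi and 0.42 ± 0.10 in LK GFPhi (adjusted p = 0.0138 and 0.0133). Both calls ended in a fit of the compared groups alone (0.0969 and 0.143), and the second with the replicate block (0.112), median centring (0.0888) and without WT LK GFPhi replicate 1 or 2 or KO replicate 2 (0.0561 to 0.0606). The LSK GFPhi call ended without WT replicate 1 or 2 or KO replicate 2 (0.062 to 0.0824). Among 16 genes of gluconeogenesis and glycogen, 1 fell in each LSK population. It was Fbp1, the phosphatase that opposes phosphofructokinase, at 11.11, 10.66 and 10.57 in WT and 9.89, 8.80 and 8.84 in KO LSK GFPneg-lo. The groups did not overlap, and Fbp1 fell by 1.60 there (adjusted p = 0.000689) and by 1.01 in LSK GFPhi (adjusted p = 0.019). The LSK GFPneg-lo call ended in a fit of the compared groups alone (0.0652), and the LSK GFPhi call with the Eif2s3y covariate (0.0949) and without KO LSK GFPhi replicate 1 (0.0811), 2 (0.0502) or 3 (0.0545) or WT LSK GFPhi replicate 1 (0.131).

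Of 16 genes that set glycolytic flux and pyruvate entry, 1 was called: Pdk4, a kinase that shuts pyruvate dehydrogenase, rose by 0.35 ± 0.09 in LSK GFPneg-lo (adjusted p = 0.0496), a call that ended with the block (0.0995), median centring (0.162), the compared groups alone (0.204), the Eif2s3y covariate (0.452) and without WT replicate 2 or 3 or any KO replicate (0.104 to 0.274). Of 20 hypoxia genes outside the members, 2 rose and 1 fell in LSK GFPhi, and 3 rose and 1 fell in LK GFPhi; 0 were called in LSK GFPneg-lo and LK GFPneg by limma. In LK GFPhi, Egln1, the oxygen sensor that marks HIF1 for breakdown, fell by 0.83 (adjusted p = 0.000142) and Bhlhe40 rose by 0.88 ± 0.16 (adjusted p = 0.00108), and both calls held under every alternative run. Ndrg1 rose by 0.64 ± 0.16 in LK GFPhi (adjusted p = 0.0139) and 0.79 ± 0.16 in LSK GFPhi (adjusted p = 0.0039), and both calls ended without _x_at and _s_at probe sets (0.891 and 1) and with the mean of probe sets (0.486 and 0.487). In LSK GFPhi, Egln1 fell by 0.44 (adjusted p = 0.0461) and Bhlhe40 rose by 0.56 ± 0.16 (adjusted p = 0.0446), and both calls ended without any 1 of the 6 arrays (Egln1 0.083 to 0.215, Bhlhe40 0.0563 to 0.216). With the block, 1 rose and 1 fell in LK GFPhi. The median of the 20 in LK GFPhi was 0.12, and -0.01 with median centring. Of the 12 Myc and stem cell metabolism genes, 1 fell in LSK GFPneg-lo, Tsc1, by 0.41 (adjusted p = 0.0208), and 2 fell in LK GFPneg, Mycn by 1.52 (adjusted p = 0.0237) and Meis1 by 1.23 (adjusted p = 0.0281). The Tsc1 call ended with the block (0.0538) and without KO replicate 1 (0.107) or 3 (0.0593) or WT replicate 1 (0.0881) or 3 (0.0867). The Mycn and Meis1 calls ended without any 1 of 5 of the 6 arrays, KO replicate 2 being the exception (Mycn 0.0632 to 0.103, Meis1 0.0593 to 0.129). With median centring 3 of the 12 fell in LK GFPhi.

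Of 30 proliferation genes, 2 rose in LSK GFPneg-lo (10 with the replicate block), 1 rose in LSK GFPhi and 2 fell in LK GFPhi, Top2a by 0.65 (adjusted p = 0.0114) and Kif11 by 1.11 (adjusted p = 0.0364). Rrm2 rose by 0.46 ± 0.11 in LSK GFPneg-lo (adjusted p = 0.0362) and 0.45 ± 0.11 in LSK GFPhi (adjusted p = 0.0225), and Ube2c by 0.94 ± 0.20 in LSK GFPneg-lo (adjusted p = 0.0141). Each of these calls ended in a fit of the compared groups alone (Top2a 0.088, Kif11 0.0848, Rrm2 0.22 and 0.0818, Ube2c 0.106). The list's mean level was 10.75 to 11.02 on the KO arrays of LSK GFPneg-lo and 10.26 to 10.67 on the WT arrays, the same arrays on which Ldhb was lower in KO. In WT LK GFPneg, 19 of the 30 were higher than in LSK GFPneg-lo (27 with median centring). Without centring, 27.1% of all genes were called there. Their part in the values of the 9 genes was not tested.

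Between WT populations the wider route moved in both directions too, beside 27.1% of all genes called from LSK GFPneg-lo to LK GFPneg. From LSK GFPneg-lo to LK GFPneg, 3 of the 17 other glycolytic enzymes rose and 6 fell, with Hk3, a hexokinase of white blood cells, at -2.88 ± 0.16 and Pgam1, which acts between Pgk1 and enolase, at -1.54 ± 0.19; both genes, named after their values were seen, were higher in LK GFPhi than in LK GFPneg, by 3.91 and 2.64. Of the 10 transport genes 3 rose and 4 fell in LK GFPneg (4 and 3 with median centring), with Slc2a1 at -3.18 ± 0.22 and Slc16a1 at 2.11 ± 0.31. Median centring turned the balance of the 17 enzymes there to 5 higher and 5 lower.

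Over the 24 arrays, which share the 8 groups, the levels of Pkm and Hk2 had a correlation of r = 0.93, Hk2 and Pgk1 0.91, Pkm and Pgk1 0.90, and Pkm and Ldhb 0.83. Hk1 ran against this group, with -0.84 to Hk2 and -0.79 to Pkm, and Ldha with -0.52 to Ldhb. Over the 8 group means, the gene most like Ldhb was Grb2 (r = 0.983, and 0.693 over the 24 arrays), followed by Resp18, H2-Bl, Fndc10 and Tsc22d4 (0.981 to 0.954). The gene most like Ldha was E2f8 (r = 0.982, and 0.742 over the arrays), followed by Med31, Atp23, Anapc10 and Med24 (0.974 to 0.964). With 8 points and 18193 genes such values are a description only.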

How the data were processed

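The study hybridised RNA of 4 populations and 2 genotypes to 24 arrays, 3 per group. The authors processed the arrays with RMA (version not given in the sources used here), per the submitters' processing notes, and the deposited values are log2 signal (3.33 to 14.52). Of 45101 probe sets, 64 controls, 932 with several symbols and 9160 without a symbol were left out. Of the 34945 others, 34741 had an Entrez ID in the RefSeq table, which updated 0 symbols, and the brightest probe set over all arrays stood for each of 18193 genes. All columns of per-sample values were used, and the number of arrays limits the precision.

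The tests came from limma 3.58.1 under R 4.3.3 (functions lmFit and eBayes at defaults, 8 group means, 16 residual and 3.27 prior degrees of freedom), with two-sided p-values adjusted by Benjamini and Hochberg over all genes within a comparison and a threshold of 0.05. Errors of differences are moderated standard errors. An exact permutation test of 3 against 3 arrays cannot go below 0.1. Gene positions and promoters are from RefSeq tables of GRCm38.p6. The steps were tested on simulated data.

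Replicate numbers were taken to pair the arrays where every pair of same-numbered arrays had residuals correlated above 0.1. By that measure they pair the genotypes within LK GFPhi (lowest r = 0.175), LK GFPneg (0.359) and LSK GFPneg-lo (0.276). They also pair the populations in all 4 WT contrasts (0.171 to 0.582) and in the LK GFPhi with LK GFPneg interaction (0.169). They do not pair the genotypes within LSK GFPhi (0.0238), nor the arrays of the remaining contrasts. Named genes were the members, Ikzf1, Eif2s3y and Xist, up to 3 called genes with the smallest adjusted p from each other list in each KO comparison, and the 5 genes most like Ldha and Ldhb over group means. Pklr, Hk3, Pgam1, Prg2 and the WT values of Slc2a1 and Slc16a1 were picked with their values in view. The members and lists were chosen with earlier results of these data known. Alternatives were other samples in the fit, the replicate block, filters on dim (12368 genes kept) and cross-hybridising probe sets (17903 kept), the mean of probe sets, median centring, trend and robust eBayes, array weights, the Eif2s3y covariate and each array left out. The block was added to a fit of the compared groups alone. The Eif2s3y covariate was run for KO minus WT in each population and for the mean effect, and for no other contrast.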

Additional observations from a re-analysis of the deposited data

Results flagged for a closer look

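The effect of Ikaros loss on Ldhb differed between populations. It was 1.82 higher in LK GFPhi than in LSK GFPhi on the log2 scale (limma interaction contrast, adjusted p = 0.00312), where all 3 KO arrays were above the WT arrays in LK GFPhi and all 3 below them in LSK GFPhi. The same held against LSK GFPneg-lo, also at 1.82 (adjusted p = 0.000767), in a contrast added after the data were seen. Over all alternatives run for Ldhb, the first contrast ranged from 1.59 to 2.33 with adjusted p-values up to 0.0496, and the second from 1.68 to 2.45 with adjusted p-values up to 0.005. The Eif2s3y covariate, with which the Ldhb calls in both LSK populations ended, was not run for interaction contrasts. Whether these 2 contrasts hold with it was not tested.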

How the results depend on the processing

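Counts are of the 9 genes called, and causes were not tested unless the alternative itself removes samples or probe sets. With Eif2s3y as a covariate the count went from 1 to 0 in KO against WT in LSK GFPneg-lo and LSK GFPhi, and from 2 to 1 for the mean effect. Without _x_at and _s_at probe sets, which removes Aldoa, it went from 2 to 1 in KO LK GFPhi and for the mean effect. A fit of the compared groups alone took it from 1 to 0 for WT LSK GFPhi against LSK GFPneg-lo and for WT LK GFPhi against LSK GFPhi. With the mean of all probe sets it went from 1 to 0 for the first of these and from 1 to 2 for the second, from 1 to 2 in KO LSK GFPhi, from 0 to 1 for the interaction of the LK populations and from 1 to 2 for LK GFPhi against LSK GFPneg-lo. Array weights raised it from 0 to 1 in KO LK GFPneg, from 1 to 4 for WT LK GFPhi against LSK GFPhi, from 0 to 2 for the interaction of LK GFPneg with LSK GFPneg-lo, from 0 to 1 for those of LK GFPhi with LK GFPneg and LK GFPneg with LSK GFPhi, from 1 to 2 for LK GFPhi with LSK GFPneg-lo and from 2 to 4 for the mean effect. The replicate block raised it from 1 to 4 for WT LK GFPhi against LSK GFPhi and from 2 to 4 for the mean effect. The block also took it from 0 to 1 for the interactions of LK GFPneg with LSK GFPneg-lo and with LSK GFPhi. No other count changed, though 1 gene replaced another (Pfkp for Pgk1) within the 6 of WT LK GFPneg against LSK GFPneg-lo. The fit of the compared groups alone, without the block, made the same exchange. The mean effect and the interactions raised by the block are contrasts that the numbers do not pair. Median centring raised the interaction of LK GFPneg with LSK GFPhi from 0 to 1.

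With each array left out in turn, the counts ran from 1 to 1 in KO LSK GFPneg-lo and LSK GFPhi, 0 to 1 in KO LK GFPneg, 2 to 2 in KO LK GFPhi, 0 to 1 for WT LSK GFPhi against LSK GFPneg-lo, 5 to 6 for WT LK GFPneg against LSK GFPneg-lo, 0 to 4 for WT LK GFPhi against LSK GFPhi and 6 to 6 for WT LK GFPhi against LK GFPneg. They ran from 0 to 1 for the interactions of LK GFPneg with LSK GFPneg-lo and of the LK populations, 0 to 2 for LK GFPneg with LSK GFPhi, 1 to 2 for LK GFPhi with LSK GFPneg-lo, and 1 to 4 for the mean effect. Of all counts under alternatives, 221 were equal or close to the main count, where a change such as 6 to 5 was taken as close. Another 24 counts were higher and 23 lower. Of the single-gene values, 2659 kept their status as called or not called, 40 gained a call and 177 lost one. In 0 of them did a difference with a call change its sign.

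Counts over all genes moved more. In KO LK GFPhi 1740 genes were called, and 491 with the compared groups alone, 1020 with the block and 3240 with array weights; in LSK GFPneg-lo 389, and 199, 962 and 1120, and 210 with the Eif2s3y covariate; in LSK GFPhi 837, with 1288 by weights and 499 with the covariate; in LK GFPneg 483, and 216 alone, 1210 by weights and 209 with the covariate. For WT LSK GFPhi against LSK GFPneg-lo 822 became 1970 with the block, for LK GFPneg against LSK GFPneg-lo 4934 became 7683 with centring (5647 higher and 2036 lower, against 2368 and 2566), for LK GFPhi against LSK GFPhi 827 became 149 alone, 3148 with the block and 2226 by weights, and for LK GFPhi against LK GFPneg 3380 became 5140 with the block. For the mean effect 2932 became 4816 with the block, 5126 by weights and 850 with the covariate. Interactions gave 57 for the LSK populations (30 alone, 98 block, 133 weights), 147 for LK GFPneg with LSK GFPneg-lo (280 block, 441 weights), 26 for LK GFPhi with LSK GFPhi (8 alone, 12 without dim probe sets, 43 mean of probe sets, 91 weights), 454 for the LK populations (281 alone, 935 weights), 187 for LK GFPhi with LSK GFPneg-lo (57 alone, 640 block, 685 weights) and 359 for LK GFPneg with LSK GFPhi (584 block, 754 weights).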
